A study of Mus musculus with 43 samples.

Results

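Cardiomyocytes and endothelial cells of the uninjured adult wild-type mouse heart were compared in 6 of the 43 bulk RNA-seq libraries of the series, 3 for each cell fraction. The members were taken by label: every library whose genotype is wild type, whose treatment is homeostasis and whose cell type is cardiomyocytes or endothelial cells. Neither group carries the Q150X allele of Vegfa, a stop-gained change made with CRISPR/Cas9 that the rest of the series studies at rest and after infarction, and neither was infarcted. Total RNA of the isolated cells was extracted with Trizol, and 2 μg per library was sequenced on an Illumina instrument. How the cells were isolated or sorted, the strain, the sex and the exact age of the mice are not stated in the sources used here. The labels do not say whether libraries came from separate animals, so each p-value below measures only the spread between these 6 libraries. The 3 cardiomyocyte and 3 endothelial libraries of Q150X hearts at homeostasis, which share no library with the main comparison, served as a repeat of it.

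Cardiomyocytes are the contracting cells of the heart. They are filled with sarcomeres and mitochondria and meet most of their energy demand by oxidising fatty acids. Each lies beside a capillary, whose endothelial cells pass lipid, oxygen and glucose from the blood to the muscle, and the neighbouring cells signal to each other: muscle-derived VEGF and angiopoietin act on endothelial receptor kinases, and endothelial neuregulin acts on ErbB receptors of the muscle.

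Levels are in CPM, the counts of a gene relative to the size of its library in the usual unit, after TMM scaling, which sets the typical gene to be equal in the libraries, and differences are log2 fold changes of cardiomyocytes over endothelial cells, so that a positive value is higher in cardiomyocytes. A gene was called when its adjusted p in edgeR's quasi-likelihood test was under 0.05. The libraries held 25035490 to 38761623 counts. Genes of the mitochondrial genome took 39.6%, 49.95% and 41.5% of the cardiomyocyte counts and 2.40%, 2.04% and 1.87% of the endothelial counts, and 13112 to 13675 genes reached 10 counts in cardiomyocytes against 16248 to 16570 in endothelial cells. The scale therefore matters: without a composition factor every log2 fold change moves toward the endothelial side by a median of -1.34, and by -0.54 when the mitochondrially encoded genes are also left out of the library size. In bulk RNA, fewer cells of a type and less RNA per cell cannot be told apart. Ddx3y, a Y-linked RNA helicase gene, was read in all 6 libraries, at 174, 185 and 194 CPM in cardiomyocytes and 149, 158 and 124 CPM in endothelial cells; its log2 fold change of 0.36 turned to -0.98 on library size and was -0.08, not called, in Q150X libraries.

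Most genes differed between the fractions. Of 16054 genes tested, 12794 were called (79.7%), 5838 of them higher in cardiomyocytes (36.4%) and 6956 higher in endothelial cells (43.3%). Because a call is the usual outcome here, a stricter rule is used throughout: called, at least 4-fold apart, and every library of one fraction above every library of the other. By that rule 2568 genes were higher in cardiomyocytes (16.0% of those tested) and 3788 in endothelial cells (23.6%). The balance of directions rests on the scale: on library size without a composition factor 2735 genes were called higher in cardiomyocytes and 11223 in endothelial cells, 1413 and 6610 by the stricter rule, and when that size left out the mitochondrially encoded genes, a scale added after the values were seen, the counts were 4338 and 8649, and 2066 and 4570. The median log2 fold change of all genes tested was -0.19, and the median of its absolute value was 1.48.

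**Figure D1:**
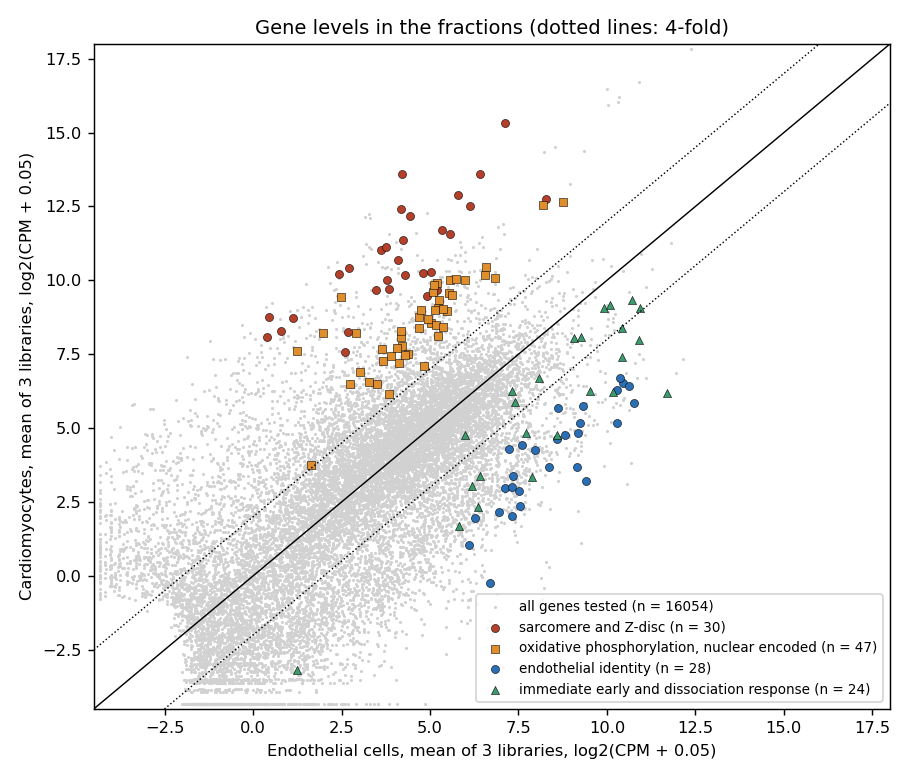
Mean level of each tested gene in endothelial cells (horizontal) and cardiomyocytes (vertical), both as log2(CPM + 0.05) over 3 libraries, with a line of equality and dotted lines at 4-fold. The 30 sarcomere genes (red circles) and 47 nuclear-encoded oxidative phosphorylation genes (orange squares) lie above the upper dotted line, the 28 endothelial identity genes (blue circles) lie below the lower one, and the 24 immediate early genes (green triangles) lie below equality.

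Q150X libraries gave nearly the same division. Of the 12476 called genes that were also tested there, 11659 were called in the same direction and 1 in the opposite direction. The Q150X comparison itself called 79.1% of its genes, and 41.3% passed the stricter rule in either direction. Of 6067 genes past the stricter rule in wild type, 5714 passed it again with the same direction and none was called in the opposite one. Between genotypes, the log2 fold change of these genes differed by a median of 0.44. The single reversal was Pgam1, a phosphoglycerate mutase of glycolysis, at -0.32 in wild type (adjusted p = 0.0285) and 0.40 in Q150X (adjusted p = 0.0441). Its difference between the genotypes did not pass the test of that difference itself (edgeR interaction term, adjusted p = 0.349).

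All 30 sarcomere and Z-disc genes, the parts of the contractile filaments and of the discs that anchor them, were higher in cardiomyocytes by the stricter rule, with a median log2 fold change of 6.85 (range 4.47 to 9.39). Myh6, the main myosin heavy chain of the adult mouse heart, was read at 42736, 38949.6 and 42635 CPM in cardiomyocytes and 164, 128 and 126 CPM in endothelial cells. Its lowest cardiomyocyte library was thus far above its highest endothelial library (log2 fold change 8.22 ± 0.18 (SE), adjusted p = 3.06e-12). Ttn, the giant spring protein of the sarcomere, stood at 13209, 12225 and 12079 CPM in cardiomyocytes and 22.4, 14.8 and 18.5 CPM in endothelial cells (log2 fold change 9.39 ± 0.21 (SE), adjusted p = 3.06e-12). It was the only gene of this list among the 12 largest cardiomyocyte differences of the transcriptome, which also held the myosin Myh7b, not a member of the list.

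The thin filament followed the same division. Actc1, cardiac actin, was read at 15389.9, 10168 and 11598 CPM in cardiomyocytes and 89.6, 81.4 and 84.7 CPM in endothelial cells (log2 fold change 7.18 ± 0.20 (SE), adjusted p = 7.61e-12). Tnnt2, the troponin subunit that binds tropomyosin, stood at 5476, 5751 and 6388 CPM in cardiomyocytes and 74.6, 72.6 and 63.8 CPM in endothelial cells (log2 fold change 6.38 ± 0.15 (SE), adjusted p = 3.06e-12). Tpm1, the tropomyosin that covers the myosin-binding sites of actin, had the smallest difference of these 4 genes and Myl2, at 7779, 6119.7 and 6972 CPM in cardiomyocytes and 279, 361 and 295 CPM in endothelial cells (log2 fold change 4.48 ± 0.16 (SE), adjusted p = 6.51e-11). In Myl2, the regulatory light chain of the ventricles, the values were 8024, 7211 and 7557 CPM in cardiomyocytes and 58.4, 59.8 and 46.6 CPM in endothelial cells (log2 fold change 7.11 ± 0.16 (SE), adjusted p = 3.06e-12). None of the 30 genes overlapped between the fractions.

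Because the sarcomere genes moved together, the 250 bases before their transcription starts were read from RefSeq's promoter table (build GRCm38.p6; the deposited counts use GRCm39, and no coordinate was carried between builds). The table held 35 promoters for 25 of the 30 genes. The motifs, the promoters other than that of Ttn and the comparison sets were chosen after the expression values were seen, both strands were searched, a base could count for more than 1 motif, and the shares are a description with no test. A MEF2 site, the recognition sequence of the MEF2 factors, stood in 14.3% of the sarcomere promoters (genes Mybpc3, Myoz2, Synpo2l, Ttn and Xirp2), against 0.508% of all 32851 promoters in the table, 1.63% of the promoters of genes past the stricter rule in cardiomyocytes and 0.211% of those past it in endothelial cells. A CArG box, the recognition sequence of serum response factor, stood in 20% of the sarcomere promoters (Acta1, Actc1, Ldb3, Myl3, Myom1 and Nebl), against 1.47%, 1.49% and 1.72%. The promoters of Ttn and Mybpc3, the myosin-binding protein C of the thick filament, show the first motif in capitals, and those of Actc1 and Myom1, a protein of the sarcomere's M-band, show the second. They lie at chr2:76982548-76982797 (minus strand), chr2:91117894-91118143 (plus strand), chr2:114052876-114053125 (minus strand) and chr17:71019307-71019556 (plus strand), each written 5′ to 3′ and ending at the base before the start.
Ttn: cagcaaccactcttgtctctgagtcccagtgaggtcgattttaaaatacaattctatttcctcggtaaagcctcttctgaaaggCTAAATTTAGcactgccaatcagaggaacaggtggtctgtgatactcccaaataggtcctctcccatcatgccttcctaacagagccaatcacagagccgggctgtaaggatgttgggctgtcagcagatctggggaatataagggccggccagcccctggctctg
Mybpc3: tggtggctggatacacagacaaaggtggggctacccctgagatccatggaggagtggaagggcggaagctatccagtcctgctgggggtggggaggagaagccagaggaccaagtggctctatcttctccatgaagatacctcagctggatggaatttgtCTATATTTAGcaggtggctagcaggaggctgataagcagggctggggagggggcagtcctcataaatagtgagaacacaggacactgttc
Actc1: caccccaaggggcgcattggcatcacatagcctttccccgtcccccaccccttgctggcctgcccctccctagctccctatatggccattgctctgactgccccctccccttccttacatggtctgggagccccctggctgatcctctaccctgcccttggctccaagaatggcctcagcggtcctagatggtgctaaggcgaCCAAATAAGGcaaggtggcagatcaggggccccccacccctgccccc
Myom1: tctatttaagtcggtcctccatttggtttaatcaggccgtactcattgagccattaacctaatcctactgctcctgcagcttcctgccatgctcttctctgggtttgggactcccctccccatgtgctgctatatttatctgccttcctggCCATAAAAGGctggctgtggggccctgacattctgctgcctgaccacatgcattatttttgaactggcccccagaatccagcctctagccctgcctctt
The capitals begin 166 bases before the start in Ttn, 90 in Mybpc3, 47 in Actc1 and 99 in Myom1. A match says only that these letters stand there.

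Calcium handling was divided less evenly. Of 17 tested genes for the release and uptake of calcium (18 listed), 14 were higher in cardiomyocytes and 3 in endothelial cells, all by the stricter rule. Atp2a2, the pump that returns calcium to the sarcoplasmic reticulum, was read at 22986, 22593 and 24175 CPM in cardiomyocytes and 389.8, 381 and 343 CPM in endothelial cells (log2 fold change 5.97 ± 0.14 (SE), adjusted p = 3.33e-12). Ryr2, the release channel of the same store, stood at 4969.9, 4241 and 4316 CPM in cardiomyocytes and 11.2, 7.51 and 8.04 CPM in endothelial cells (log2 fold change 8.98 ± 0.21 (SE), adjusted p = 3.42e-12). The store proteins Srl, Hrc and Casq2 and the pump's inhibitor Pln were higher in cardiomyocytes by log2 fold changes of 7.73, 7.35, 4.86 and 6.71. Opposite to these, Sln, a pump inhibitor of atrial muscle, was read at 0.239, 0 and 0.184 CPM in cardiomyocytes and 9.99, 10.2 and 14.004 CPM in endothelial cells (log2 fold change -6.31 ± 0.41 (SE), adjusted p = 2.37e-08). Bin1, a membrane-bending protein of the transverse tubules that has forms in many tissues, was also higher in endothelial cells (0.954, 1.42 and 1.24 CPM in cardiomyocytes and 18.5, 18.4 and 18.8 CPM in endothelial cells), as was Fkbp1b, which binds the release channel (log2 fold change -2.93). Sln is an atrial marker, and the atrial list is given with the other cell types.

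Among 18 ion channel genes, 17 were higher in cardiomyocytes, 15 of them by the stricter rule, with a list median of 4.70. Kcnip2, a subunit of the fast transient outward channel, was read at 229, 166 and 213 CPM in cardiomyocytes and 2.68, 2.28 and 2.07 CPM in endothelial cells (log2 fold change 6.44 ± 0.17 (SE), adjusted p = 7.22e-12). Kcnk3, a background potassium channel, was higher by 6.09, and the inward rectifiers Kcnj11 and Kcnj3 by 6.83 and 5.19. Abcc9, the regulatory subunit that forms the ATP-sensitive channel with inward rectifiers and is also made by pericytes, differed less (570, 682 and 695 CPM in cardiomyocytes and 98.5, 147 and 116 CPM in endothelial cells, log2 fold change 2.43). Kcna5, an outward potassium channel, was the exception, at 6.98, 18.7 and 7.997 CPM in cardiomyocytes and 53.2, 53.4 and 69.5 CPM in endothelial cells (log2 fold change -2.39 ± 0.40 (SE), adjusted p = 0.00183), with the endothelial libraries above all cardiomyocyte libraries.

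At the intercalated disc, the junction between cardiomyocytes, 13 of 15 genes were higher in cardiomyocytes, 12 by the stricter rule. Dsp, the desmosomal plakin, was read at 2869, 2972 and 3352 CPM in cardiomyocytes and 18.9, 13.5 and 10.4 CPM in endothelial cells (log2 fold change 7.75 ± 0.25 (SE), adjusted p = 8.50e-10), and Cdh2, the cadherin of the disc, at 496, 487 and 549 CPM in cardiomyocytes and 3.88, 4.68 and 3.803 CPM in endothelial cells (log2 fold change 6.95 ± 0.15 (SE), adjusted p = 2.68e-12). Des, the muscle intermediate filament, and the disc adaptors Nrap and Xirp1 followed, with log2 fold changes of 4.98, 7.68 and 5.70. Gja1, the main gap junction protein of the ventricle, overlapped between the fractions, at 508, 648 and 630.3 CPM in cardiomyocytes and 619.7, 636 and 568 CPM in endothelial cells (log2 fold change -0.03 ± 0.12 (SE), adjusted p = 0.827). Its sign turned to 0.10 when cardiomyocyte replicate 1 was left out. Jup, plakoglobin, which desmosomes and endothelial junctions share, was slightly higher in endothelial cells (204, 239.7 and 271 CPM in cardiomyocytes and 309.9, 273 and 329.5 CPM in endothelial cells, log2 fold change -0.35, adjusted p = 0.0229), a call lost without endothelial replicate 3 or cardiomyocyte replicate 1 (adjusted p = 0.0759 and 0.144).

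Transcription factors of heart muscle differed in how exclusive they were. Of 21 tested (22 listed), 19 were called higher in cardiomyocytes and 2 in endothelial cells, and 15 passed the stricter rule, all in cardiomyocytes. Smyd1, a muscle methyltransferase, was read at 891, 727 and 846 CPM in cardiomyocytes and 5.21, 4.65 and 4.66 CPM in endothelial cells (log2 fold change 7.41 ± 0.15 (SE), adjusted p = 2.19e-12), and Ppargc1a, a coactivator of mitochondrial genes, at 372, 177 and 248 CPM in cardiomyocytes and 2.11, 1.37 and 1.78 CPM in endothelial cells (log2 fold change 7.24 ± 0.38 (SE), adjusted p = 2.27e-06). Tbx20, a T-box factor of the heart, was higher by 2.80, and Nfix, a nuclear factor I family member, by 1.76. The MEF2 family was split: Mef2a was called higher in cardiomyocytes (322, 345 and 359 CPM in cardiomyocytes and 229, 205 and 202 CPM in endothelial cells, log2 fold change 0.69), as was Mef2d (0.96), whereas Mef2c was called higher in endothelial cells (82.2, 106 and 109 CPM in cardiomyocytes and 161, 134 and 138 CPM in endothelial cells, -0.55). On library size alone, which moves values toward the endothelial side, Mef2a and Mef2d turned sign, to -0.65 and -0.38. The value of Mef2c was already negative, so that scale could not turn it. Prdm16, a zinc finger regulator, was at -0.40, the remaining endothelial call of the list, which was lost without endothelial replicate 3 or cardiomyocyte replicate 1 or 2 (adjusted p = 0.0509, 0.0782 and 0.0542).

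All 28 general endothelial genes were higher in endothelial cells by the stricter rule, with a median log2 fold change of -4.27 (range -7.03 to -2.94). Pecam1, the junctional adhesion molecule used to sort endothelium, was read at 48.2, 85.8 and 39.8 CPM in cardiomyocytes and 1765, 1784 and 1702 CPM in endothelial cells (log2 fold change -4.92 ± 0.32 (SE), adjusted p = 4.25e-06). Cdh5, the cadherin of endothelial adherens junctions, stood at 69.1, 145 and 64.9 CPM in cardiomyocytes and 1529, 1298 and 1395 CPM in endothelial cells (log2 fold change -3.92 ± 0.36 (SE), adjusted p = 7.77e-05). In both genes the fractions did not overlap, and cardiomyocyte replicate 2 was the highest of its group.

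That library was the highest cardiomyocyte library for the list as a whole. Summed over the 28 genes, cardiomyocytes held 640.2, 1263 and 571 CPM and endothelial cells 16314, 14443 and 14792 CPM. Without cardiomyocyte replicate 2, the list median was -4.65 and 4178 genes passed the stricter rule in endothelial cells, in place of 3788. A smaller group meets the condition of no overlap more easily, and leaving out any of the libraries raised this count. The rise is therefore not particular to that library. In Q150X libraries the list median was -5.27. The 30 sarcomere genes summed to 1125, 1107 and 1025 CPM in endothelial cells and 131590, 115977 and 125065 CPM in cardiomyocytes. The part of RNA from one fraction in the libraries of the other was not tested.

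The receptors of the endothelial surface followed the list. Kdr, the main signalling receptor for VEGFA, was read at 64.9, 139 and 54.5 CPM in cardiomyocytes and 1796, 1595 and 1381 CPM in endothelial cells (log2 fold change -4.21 ± 0.42 (SE), adjusted p = 1.69e-04). Flt1, which binds VEGFA, VEGFB and PGF, stood at 53.3, 129 and 54.1 CPM in cardiomyocytes and 1422, 1222 and 1128 CPM in endothelial cells (log2 fold change -3.99 ± 0.43 (SE), adjusted p = 2.26e-04). Eng, a coreceptor for BMP ligands of the blood, reached the largest difference of these (29.2, 52.1 and 27.3 CPM in cardiomyocytes and 1361, 1127 and 1219.7 CPM in endothelial cells, log2 fold change -5.09), and Ptprb, the phosphatase that dampens Tie2, was at -3.70.

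In the promoters of the same list, the RefSeq table held 20 sequences for 16 of the 28 genes. AGGAAG, one form of the core that ETS factors bind, stood in 55% of them (Cd34, Egfl7, Emcn, Eng, Erg, Flt1, Rasip1, Robo4, Tie1 and Ushbp1), against 29.5% of all promoters in the table, 35.2% of those of genes past the stricter rule in endothelial cells and 25.6% of those past it in cardiomyocytes. In the sarcomere promoters its share was 20%. None of the 20 endothelial promoters held a MEF2 site or a CArG box. In all, 8 motifs were searched. Of the other 5, CCGGAA is also a form of the ETS core, and its share did not go with that of AGGAAG. It stood in 5% of the endothelial and in none of the sarcomere promoters, against 12% of all. Its share was 20% for the genes tested here and 11% for those past the stricter rule in endothelial cells. AAGGTCA likewise stood in 5% and in none (4.08% of all). The share with AGATAA was 10% of the endothelial and 17.1% of the sarcomere promoters (9.99% of all). That with GGGCGG was 30% and 17.1% (32.7% of all), and that with TATAAA 10% and 5.71% (7.59% of all). In promoters of the genes tested here the background differed. AGGAAG stood in 28.6% of these, AAGGTCA in 2.92%, AGATAA in 6.12%, GGGCGG in 55.2% and TATAAA in 4.15%. Promoters of Flt1, of Egfl7, a secreted protein of the vessel wall, and of Emcn, a sialomucin of capillary and venous endothelium, show the motif in capitals, as AGGAAG or, where it lies on the other strand, as CTTCCT. Their positions in GRCm38.p6 are chr5:147726012-147726261 (minus strand), chr2:26580833-26581082 (plus strand, 1 of 3 starts in the table) and chr3:137340828-137341077 (plus strand). For Egfl7 the start with the most matches was chosen.
Flt1: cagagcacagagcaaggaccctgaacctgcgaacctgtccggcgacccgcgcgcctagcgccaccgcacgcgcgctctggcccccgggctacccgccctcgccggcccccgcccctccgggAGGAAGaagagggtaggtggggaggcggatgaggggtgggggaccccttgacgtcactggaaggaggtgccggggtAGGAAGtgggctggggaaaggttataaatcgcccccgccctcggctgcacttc
Egfl7: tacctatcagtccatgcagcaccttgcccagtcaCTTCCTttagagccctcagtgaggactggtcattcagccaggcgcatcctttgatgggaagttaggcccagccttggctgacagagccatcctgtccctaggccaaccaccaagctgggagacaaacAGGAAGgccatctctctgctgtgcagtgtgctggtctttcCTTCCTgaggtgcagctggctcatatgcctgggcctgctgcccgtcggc
Emcn: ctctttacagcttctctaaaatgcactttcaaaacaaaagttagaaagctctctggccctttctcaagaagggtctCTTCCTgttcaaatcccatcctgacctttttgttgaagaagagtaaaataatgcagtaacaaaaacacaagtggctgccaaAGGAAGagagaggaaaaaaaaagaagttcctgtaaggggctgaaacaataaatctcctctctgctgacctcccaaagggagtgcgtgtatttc
Their first matches begin 129, 216 and 174 bases before the start.

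Endothelial transcription factors were all 26 called higher in endothelial cells, 22 by the stricter rule, with a median of -3.99. Ets1, an ETS family factor, was read at 20.2, 34.9 and 16.2 CPM in cardiomyocytes and 587, 579.6 and 531 CPM in endothelial cells (log2 fold change -4.57 ± 0.30 (SE), adjusted p = 3.58e-06). Sox7, one of the SoxF factors, was at 7.75, 11.05 and 4.32 CPM in cardiomyocytes and 228, 222 and 216 CPM in endothelial cells (log2 fold change -4.86 ± 0.32 (SE), adjusted p = 5.54e-06). The flow-responsive factors Klf2 and Klf4 differed by -3.56 and -3.86. Ets2 and the hypoxia factor Epas1 differed least of the 6 members with the most reads, by -2.28 and -1.87: Epas1 was still read at 317, 359 and 287 CPM in cardiomyocytes against 1348, 1098 and 1075 CPM in endothelial cells.

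The lists of endothelial subtypes differed in their medians, which was not tested. All 12 arterial genes passed the stricter rule in endothelial cells, with a median of -4.99, and so did all 8 endocardial genes, with a median of -6.12 (-5.90 with Hapln1, which had no count in cardiomyocytes, set to its lower bound). For the 20 capillary genes, all called and 19 past the stricter rule, the median was -3.74. Without cardiomyocyte replicate 2 the medians were -5.33 for the arterial, -5.96 for the endocardial and -4.44 for the capillary genes, so that the capillary value rests on that library by over 1.5-fold. Fabp4, the fatty acid chaperone that marks heart capillaries, was read at 74.8, 192 and 82.4 CPM in cardiomyocytes and 3467, 4369 and 4048 CPM in endothelial cells (log2 fold change -5.09 ± 0.46 (SE), adjusted p = 9.89e-05). Cav1, the coat protein of caveolae, stood at 77.5, 158 and 74.04 CPM in cardiomyocytes and 2245, 2209 and 2149 CPM in endothelial cells (log2 fold change -4.42 ± 0.34 (SE), adjusted p = 1.98e-05). Aqp1, a water channel, was at -3.67, Cavin2, which shapes caveolae, at -3.08, and Ly6c1, whose near copies in the Ly6 family may share its reads, at -4.49. The exception was Cd36, the fatty acid translocase that cardiomyocytes also make, at 2263, 2702 and 2457 CPM in cardiomyocytes and 3491, 3983 and 3237 CPM in endothelial cells (log2 fold change -0.53 ± 0.12 (SE), adjusted p = 0.00163).

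Among arterial genes, Efnb2, the ephrin of arteries, was read at 11.4, 25.4 and 13.01 CPM in cardiomyocytes and 293, 257 and 234 CPM in endothelial cells (log2 fold change -3.97 ± 0.33 (SE), adjusted p = 3.36e-05), and Sox17, an arterial SoxF factor, at 3.34, 5.88 and 4.14 CPM in cardiomyocytes and 149, 145 and 147 CPM in endothelial cells (log2 fold change -5.04 ± 0.18 (SE), adjusted p = 7.77e-11). Dll4, the Notch ligand of arteries and tip cells, Sema3g, Unc5b and Fbln5, a protein of elastic fibres, were at -4.22, -4.46, -4.001 and -5.52. Among 9 venous genes, 8 passed the stricter rule in endothelial cells. Vcam1, an adhesion molecule for leukocytes, was read at 2.39, 2.56 and 1.42 CPM in cardiomyocytes and 682, 641 and 537 CPM in endothelial cells (log2 fold change -8.21 ± 0.22 (SE), adjusted p = 1.19e-11), and Selp, P-selectin, at 0.358, 0.109 and 0.276 CPM in cardiomyocytes and 108, 90.8 and 94.9 CPM in endothelial cells (log2 fold change -8.62 ± 0.22 (SE), adjusted p = 5.04e-12). Ephb4, the receptor of Efnb2, and Nrp2 were at -3.11 and -3.37, and Bgn, a matrix proteoglycan made by many cells, at -4.24. Lrg1, a secreted glycoprotein, went the other way (10.3, 14.4 and 12.5 CPM in cardiomyocytes and 3.65, 2.97 and 3.25 CPM in endothelial cells, log2 fold change 1.92 ± 0.18 (SE), adjusted p = 8.76e-07).

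Endocardial and lymphatic genes were present as well. Npr3, the natriuretic peptide clearance receptor of the endocardium, was read at 2.62, 5.01 and 6.71 CPM in cardiomyocytes and 452, 289.7 and 267 CPM in endothelial cells (log2 fold change -6.11 ± 0.41 (SE), adjusted p = 1.64e-05). Cytl1, a small secreted protein of the same lining, stood at 0.239, 0.272 and 0.322 CPM in cardiomyocytes and 69.7, 63.5 and 66.4 CPM in endothelial cells (log2 fold change -7.87 ± 0.18 (SE), adjusted p = 3.06e-12). Plvap, which forms the diaphragms of fenestrae, was at -7.03, and Foxc1 and Cdh11 at -5.50 and -4.92. Of 8 lymphatic genes, 7 passed the stricter rule in endothelial cells, among them the hyaluronan receptor Lyve1 (0.596, 0.653 and 0.827 CPM in cardiomyocytes and 55.98, 55.01 and 48.3 CPM in endothelial cells) and the chemokine Ccl21a, whose near-identical copies may share its reads (0.239, 0.327 and 0.322 CPM in cardiomyocytes and 47.5, 70.8 and 56.1 CPM in endothelial cells). Prox1, which commits endothelium to the lymphatic fate and is also made by heart muscle, was higher in cardiomyocytes, at 100.5, 130.3 and 138 CPM in cardiomyocytes and 46.4, 26.8 and 27.04 CPM in endothelial cells (log2 fold change 1.88 ± 0.24 (SE), adjusted p = 1.78e-04).

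Junction genes of endothelium were called higher in endothelial cells in 16 of 16 cases, 13 by the stricter rule. Besides Pecam1 and Cdh5, Jam2, a tight junction adhesion molecule, was read at 184, 179.6 and 149 CPM in cardiomyocytes and 739, 767 and 711 CPM in endothelial cells (log2 fold change -2.11). The widely made adaptors differed less: Ctnnb1, beta-catenin, by -1.20, Tjp1 by -1.75 and Afdn by -2.39.

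Genes of other heart cells were read mainly in the endothelial libraries. The 15 pericyte and smooth muscle genes summed to 2777, 3863 and 3291 CPM there and to 837, 1117 and 955 CPM in cardiomyocytes, where most of the sum was Abcc9. Rgs5, a pericyte gene, was read at 118, 305 and 119 CPM in cardiomyocytes and 1488, 2386 and 1919 CPM in endothelial cells and Myh11, smooth muscle myosin, at 14.4, 19.3 and 18.7 CPM in cardiomyocytes and 436, 366 and 347 CPM in endothelial cells. The 14 fibroblast genes summed to 993 to 1308 CPM in endothelial cells and 140.2 to 259 CPM in cardiomyocytes, led by Gsn, Dcn and Postn (389, 308 and 127 CPM in endothelial cells, means of 3). These lists move with the endothelial fraction, and their part in the endothelial results was not tested.

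Macrophage genes summed to 104 to 133 CPM in endothelial cells and 9.48 to 20.5 CPM in cardiomyocytes, led by Lyz2, Ptprc and Ctss. Erythroid genes summed to 300.5 to 588 CPM and 0.358 to 2.07 CPM, and lymphocyte genes to 40.7 to 46.4 CPM and 0.414 to 0.835 CPM. Ms4a1, a defining B cell gene, had no count in any cardiomyocyte library, which with a floor of 3 counts over the group places it at least 109-fold higher in endothelial cells, and Cd79a was at 7.51, 7.71 and 6.83 CPM there. Among neutrophil genes, Retnlg was read at 0.921, 0.703 and 0.573 CPM in endothelial cells, and the defining S100a8 had no count in cardiomyocytes. For the epicardium, Wt1 was read at 3.46, 4.57 and 1.06 CPM in cardiomyocytes and 64.1, 59.996 and 61.9 CPM in endothelial cells, while the more specific Upk3b and Msln were under the filter on low counts, and Wt1 is also made by part of the heart's endothelium. Schwann cell genes summed to 17.3 to 20.2 CPM in endothelial cells and 7.096 to 10.2 CPM in cardiomyocytes, with Cnp among them. Of the adipocyte list Cidea alone was tested, at 27.6, 21.9 and 20.6 CPM in cardiomyocytes and 0.177, 0.0686 and 0.159 CPM in endothelial cells, and Adipoq and Plin1 stayed near 0 in all 6 libraries.

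Atrial muscle genes stood apart from the ventricular ones. Myl7, the atrial regulatory light chain, was read at 1.25, 0.9797 and 0.322 CPM in cardiomyocytes and 37.1, 46.9 and 54.3 CPM in endothelial cells (log2 fold change -5.81 ± 0.32 (SE), adjusted p = 1.58e-07), and Myl4, the atrial essential light chain, at 1.73, 2.23 and 1.38 CPM in cardiomyocytes and 38.6, 45.4 and 57.2 CPM in endothelial cells (log2 fold change -4.73 ± 0.21 (SE), adjusted p = 8.84e-10). Bmp10, a growth factor of the atria, had no count in cardiomyocytes and stood at 9.29, 16.2 and 9.18 CPM in endothelial cells, at least 219-fold higher. Dkk3 was lower in all cardiomyocyte libraries too (log2 fold change -5.18). Nppa, atrial natriuretic peptide, was read at 30.1, 22.6 and 21.7 CPM in cardiomyocytes and 34.8, 39.99 and 44.1 CPM in endothelial cells (log2 fold change -0.68 ± 0.15 (SE), adjusted p = 9.00e-04), with every endothelial library above every cardiomyocyte library. In Q150X libraries Nppa was at 69.1, 49.8 and 28.02 CPM in cardiomyocytes and 43.1, 62.9 and 20.5 CPM in endothelial cells, which overlapped, and it was not called (log2 fold change 0.21). Kcnj3 and Tbx5 of this list, which ventricles also make, were higher in cardiomyocytes. The labels name the organ and not the chamber, and the chambers that went into each fraction are not stated in the sources used here.

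**Figure D2:**
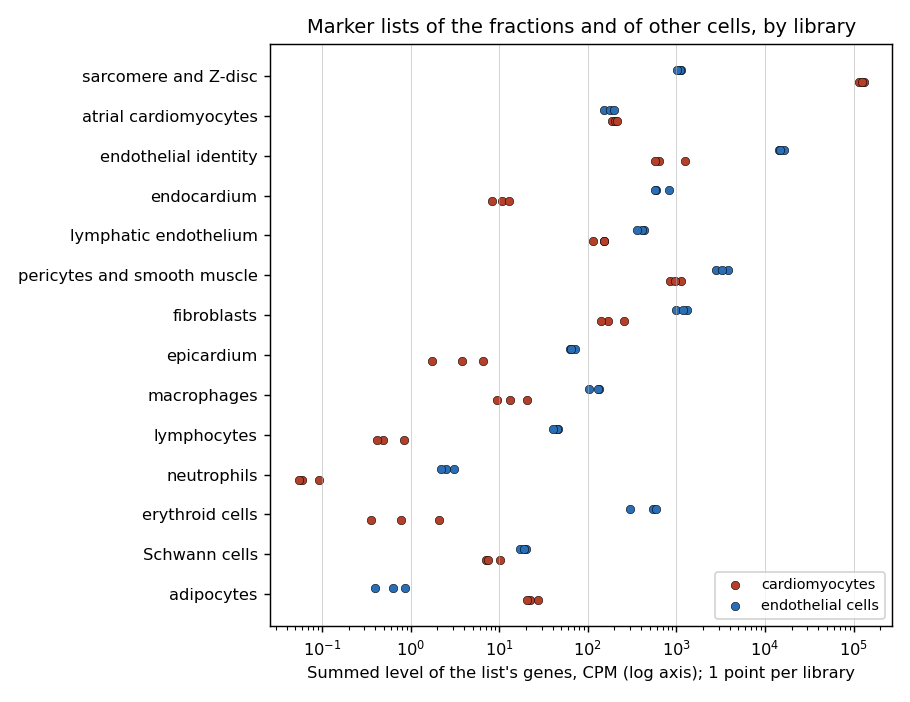
Summed level of each marker list in each library (horizontal, CPM on a log axis), with cardiomyocyte libraries in red and endothelial libraries in blue, 1 point per library. Sarcomere sums in cardiomyocytes lie at 115977 to 131590 CPM and endothelial identity sums in endothelial cells at 14443 to 16314 CPM; most lists of other cells are higher in the endothelial libraries, and the atrial sums overlap because Kcnj3 and Tbx5 offset Myl7 and Myl4.

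Nearly all tested genes of oxidative metabolism were higher in cardiomyocytes. All 13 mitochondrially encoded subunits of the respiratory chain, all 47 of the nuclear-encoded ones that were tested (54 listed) and all 24 genes of pyruvate entry and the tricarboxylic acid cycle passed the stricter rule in cardiomyocytes, as did 23 of 24 genes of fatty acid oxidation and all 19 tested genes for burning ketone bodies and branched-chain amino acids. Their median log2 fold changes were 6.48, 3.84, 4.21, 4.64 and 3.77. On library size alone they were 5.12, 2.50, 2.87, 3.30 and 2.43, still toward cardiomyocytes.

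Within the respiratory chain, mt-Co1, the catalytic subunit of complex IV, was read at 199860, 286220 and 207826 CPM in cardiomyocytes and 6088, 5110.3 and 4682 CPM in endothelial cells (log2 fold change 5.45 ± 0.20 (SE), adjusted p = 1.08e-10). Nuclear copies of mitochondrial DNA may share reads with the mt genes. Atp5b and Atp5a1, the beta and alpha subunits of ATP synthase, were at 3.88 and 4.36, and Atp5b was read at 6248, 6148 and 6736 CPM in cardiomyocytes and 385, 464 and 453 CPM in endothelial cells. Uqcrc2 of complex III and Cox4i1 of complex IV were higher by 4.30 and 3.25. The mitochondrially encoded genes mt-Cytb, mt-Nd5, mt-Nd4, mt-Nd1 and mt-Nd2 were higher by 5.82, 6.48, 5.86, 5.73 and 5.90. The lowest mitochondrially encoded difference, 5.45, thus exceeded the nuclear median.

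In the tricarboxylic acid cycle, Ogdh, the first subunit of the 2-oxoglutarate dehydrogenase, was read at 3349.5, 3471 and 3814 CPM in cardiomyocytes and 135, 112 and 116 CPM in endothelial cells (log2 fold change 4.87 ± 0.14 (SE), adjusted p = 9.79e-12). Cs, citrate synthase, stood at 2307, 2159.8 and 2279 CPM in cardiomyocytes and 89.3, 88.04 and 92.2 CPM in endothelial cells (log2 fold change 4.65 ± 0.12 (SE), adjusted p = 4.80e-12). Idh2, Sdha and Pdha1 (isocitrate dehydrogenase, succinate dehydrogenase and pyruvate dehydrogenase) were higher by 5.17, 4.06 and 4.49. All 24 members lay within 3.27 to 5.17, a narrower range than that of any other metabolic list described here.

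For fatty acid oxidation, Hadha and Hadhb, the subunits of the trifunctional protein, were higher by 4.88 and 5.25, and Acadm and Acadl, dehydrogenases of medium and long chains, by 5.03 and 4.68. Acadm was read at 1924, 1788 and 1917 CPM in cardiomyocytes and 55.3, 60.3 and 57.1 CPM in endothelial cells (log2 fold change 5.03 ± 0.12 (SE), adjusted p = 3.68e-12). Acsl1, which activates long fatty acids, and Acaa2, the last thiolase step, followed at 5.51 and 4.91. The gate into the mitochondrion did not follow as simply. Cpt1b, the muscle form of carnitine palmitoyltransferase, was read at 4.53, 3.59 and 5.06 CPM in cardiomyocytes and 0.6202, 0.343 and 0.239 CPM in endothelial cells (log2 fold change 3.46 ± 0.38 (SE), adjusted p = 2.81e-06). Cpt1a, the form of liver and other tissues, stood at 57.2, 66.3 and 59.4 CPM in cardiomyocytes and 53.5, 49.9 and 48.9 CPM in endothelial cells (log2 fold change 0.26 ± 0.11 (SE), adjusted p = 0.035). It was the only oxidation gene outside the stricter rule, turned to -1.08 on library size, and was not called without endothelial replicate 2 or 3 or cardiomyocyte replicate 2 (adjusted p = 0.111, 0.121 and 0.124), nor with a replicate block (adjusted p = 0.0648), and in Q150X libraries it was -0.21 and not called. Per kilobase of exon, Cpt1a was above Cpt1b in cardiomyocytes, at 7.98 against 1.303 CPM per kb. Cpt1b lies beside Chkb, with which it can share transcripts, so its count is reported as uncertain.

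Oxct1, the enzyme that lets muscle use ketone bodies, was read at 2313, 2105 and 2355 CPM in cardiomyocytes and 68.5, 82.6 and 71.4 CPM in endothelial cells (log2 fold change 4.93 ± 0.13 (SE), adjusted p = 7.38e-12). Acat1, the thiolase after it, Ivd and Aldh6a1 of branched-chain breakdown, Hibadh of valine breakdown and Slc16a1, a monocarboxylate carrier, were higher by 4.06, 4.71, 3.77, 3.46 and 3.70.

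Uptake of fatty acids, in contrast, was shared between the fractions: of 27 genes, 12 were called higher in cardiomyocytes and 13 in endothelial cells, 11 and 8 of them by the stricter rule, and the median was -0.05. That median turned to 0.11 without cardiomyocyte replicate 1. Lpl, the lipase that frees fatty acids from lipoproteins, was read at 8301, 10408 and 10527 CPM in cardiomyocytes and 474, 559 and 469.8 CPM in endothelial cells (log2 fold change 4.28 ± 0.15 (SE), adjusted p = 6.91e-11). Gpihbp1, which anchors that lipase on the capillary surface, was read at 13.1, 27.5 and 12.8 CPM in cardiomyocytes and 164, 217 and 236 CPM in endothelial cells (log2 fold change -3.53 ± 0.36 (SE), adjusted p = 1.40e-04). The enzyme's transcript was thus higher in the muscle fraction and its anchor's in the endothelial fraction, without overlap in either. Fabp3, the heart fatty acid binding protein, stood at 3198, 2805 and 3305 CPM in cardiomyocytes and 24.8, 24.3 and 23.1 CPM in endothelial cells (log2 fold change 7.01 ± 0.14 (SE), adjusted p = 2.19e-12), the reverse of Fabp4. Mgll, which splits monoglycerides, was higher in endothelial cells (-3.57), and Pnpla2, the lipase of lipid droplets, in cardiomyocytes (2.32).

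Glucose handling lay between these lists. Of 27 tested glycolysis and glucose uptake genes (28 listed), 20 were called higher in cardiomyocytes and 6 in endothelial cells, with 14 and 4 by the stricter rule and a median of 2.47; 5 of the 20 cardiomyocyte calls turned sign on library size. Pfkm, muscle phosphofructokinase, was read at 1384, 1153 and 1265 CPM in cardiomyocytes and 25.3, 23.2 and 27.5 CPM in endothelial cells (log2 fold change 5.64 ± 0.14 (SE), adjusted p = 4.21e-12). Aldoa, Tpi1, Eno3, Pkm and Ldhb (aldolase, triosephosphate isomerase, muscle enolase, pyruvate kinase and the heart lactate dehydrogenase) were higher by 3.03, 3.25, 6.68, 2.47 and 5.91. Against them, Pfkfb3, which makes the activator of phosphofructokinase and drives glycolysis in sprouting vessels, was read at 3.697, 6.096 and 4.14 CPM in cardiomyocytes and 198, 199.6 and 169 CPM in endothelial cells (log2 fold change -5.35 ± 0.18 (SE), adjusted p = 8.96e-11). Slc2a3, a high-affinity glucose carrier, stood at 0.119, 0.708 and 0.138 CPM in cardiomyocytes and 17.4, 15.9 and 15.99 CPM in endothelial cells (log2 fold change -5.68 ± 0.36 (SE), adjusted p = 2.88e-08), and Slc2a1, the general one, at 12.5, 20.03 and 19.6 CPM in cardiomyocytes and 21.4, 25.2 and 23.6 CPM in endothelial cells (log2 fold change -0.42 ± 0.17 (SE), adjusted p = 0.034). The endothelial side of the list therefore held 2 glucose carriers and the regulator of the pathway, together with Pgam1, Slc16a3, a lactate exporter (-4.65), and Hk3 (-2.46); Slc16a3 and Hk3 were chosen after their values were seen. The small endothelial call of Slc2a1 was lost without endothelial replicate 2 or 3 or cardiomyocyte replicate 1 (adjusted p = 0.109, 0.0765 and 0.156), and that of Pgam1 without any of 4 libraries (adjusted p = 0.0749 to 0.158).

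Stores and shuttles of energy were on the cardiomyocyte side. For glycogen, 13 of 16 genes passed the stricter rule in cardiomyocytes: Pygm, muscle phosphorylase, was read at 1564, 1636 and 1868 CPM in cardiomyocytes and 43.5, 47.1 and 45.9 CPM in endothelial cells (log2 fold change 5.21 ± 0.13 (SE), adjusted p = 4.69e-12), and Pygb, Ugp2, Ppp1r3a and Pgm1 were higher by 4.79, 3.21, 7.53 and 4.66. Pgm2, a phosphopentomutase, was the reverse, at 3.101, 4.57 and 2.48 CPM in cardiomyocytes and 55.1, 56.9 and 57.7 CPM in endothelial cells (log2 fold change -4.07 ± 0.18 (SE), adjusted p = 7.64e-10). Of 14 tested genes for phosphocreatine, myoglobin and adenine nucleotides (15 listed), 13 were higher in cardiomyocytes, 10 by the stricter rule. Mb, myoglobin, was read at 8039, 6921 and 7468 CPM in cardiomyocytes and 54.2, 52.6 and 54.4 CPM in endothelial cells (log2 fold change 7.12 ± 0.14 (SE), adjusted p = 2.19e-12). Ckmt2 and Ckm, the mitochondrial and cytosolic creatine kinases of muscle, were at 8.04 and 7.75, and Slc25a4, the ADP/ATP carrier of muscle, Vdac1, the outer membrane channel, and Adprhl1, a hydrolase-like protein of the heart, at 4.84, 4.07 and 6.70. Ckb, the brain-type creatine kinase, was higher in endothelial cells (-1.06).

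Biosynthesis was mixed. Of 26 genes for pentose phosphate, one-carbon and nucleotide synthesis, 10 were called higher in cardiomyocytes and 9 in endothelial cells, and the median of 0.30 turned to -1.05 on library size and to -0.25 on library size without the mitochondrially encoded genes. Impdh2 and Impdh1, which make guanine nucleotides, were higher in endothelial cells by the stricter rule (-2.45 and -2.32), whereas Paics, Gart and Shmt2, of purine and serine use, were called higher in cardiomyocytes (1.16, 1.81 and 1.67); Paics turned to -0.18 on library size, and Taldo1 went from 0.52 to -0.81. Tkt, transketolase, and Prps2, which starts purine synthesis, were called higher in endothelial cells (-1.49 and -1.20). For sterol and fatty acid synthesis, 14 of 22 genes were called higher in endothelial cells, 6 by the stricter rule. Elovl5, an elongase of polyunsaturated fatty acids, was read at 17.1, 22.9 and 16.96 CPM in cardiomyocytes and 174, 178 and 173 CPM in endothelial cells (log2 fold change -3.21 ± 0.14 (SE), adjusted p = 3.44e-10), with Scd2, Elovl1 and Acly at -3.23, -2.79 and -1.98. Fdft1, squalene synthase, went the other way at 2.62; the smaller cardiomyocyte calls of Hmgcs1, Fasn and Cyp51 (0.44, 0.90 and 1.13) turned sign on library size (-0.90, -0.44 and -0.20).

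Enzymes that make vessel-regulating signals were mostly endothelial: 11 of 17 tested genes (18 listed) passed the stricter rule there and 2 in cardiomyocytes. Nos3, endothelial nitric oxide synthase, was read at 7.57, 12.3 and 3.77 CPM in cardiomyocytes and 149.9, 123 and 145 CPM in endothelial cells (log2 fold change -4.15 ± 0.42 (SE), adjusted p = 1.68e-04). Ace, which makes angiotensin II, stood at 7.57, 14.8 and 7.997 CPM in cardiomyocytes and 196, 166 and 213 CPM in endothelial cells (log2 fold change -4.24 ± 0.28 (SE), adjusted p = 2.53e-06), and Entpd1, which removes extracellular ATP, at -5.11; Gucy1b1, the nitric oxide receptor subunit that pericytes also make, was at -4.31. Adk, adenosine kinase, was the largest opposite member at 229.5, 220.5 and 239.6 CPM in cardiomyocytes and 7.92, 9.27 and 8.61 CPM in endothelial cells (log2 fold change 4.74 ± 0.12 (SE), adjusted p = 5.01e-12), followed by Nt5e, which makes extracellular adenosine, at 2.91, Pts at 1.90 and Spr at 0.91, both of tetrahydrobiopterin synthesis; Spr turned to -0.45 on library size. Of 22 antioxidant enzymes, 14 were called higher in cardiomyocytes and 7 in endothelial cells, 9 and 1 by the stricter rule. The mitochondrial enzymes Sod2 and Prdx3 were at 681, 605 and 650.3 CPM in cardiomyocytes and 36.4, 41.9 and 38.97 CPM in endothelial cells (log2 fold change 4.04 ± 0.12 (SE), adjusted p = 1.62e-11) and at 4.30, and Prdx5, Cat and Gpx4 at 3.40, 2.89 and 1.72. Cytosolic Txn1 and Txnrd1, Gclc and the secreted Sod3 were called higher in endothelial cells (-0.97, -0.90, -0.75 and -1.16). Prdx1, at 0.71, turned to -0.63 on library size, as did the median of the 22 genes, from 0.98 to -0.37.

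**Figure D3:**
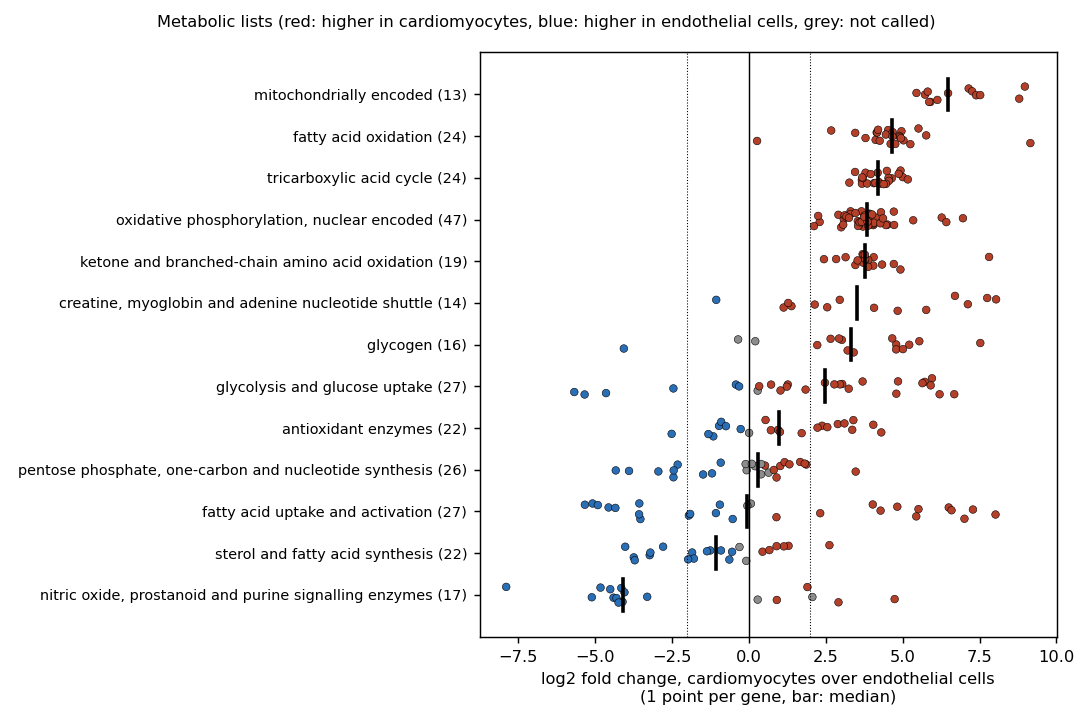
Log2 fold change of every tested gene of the metabolic lists, cardiomyocytes over endothelial cells (horizontal), 1 point per gene, with a bar at each list's median and the number of genes in brackets. The respiratory chain, tricarboxylic acid cycle and ketone lists lie wholly to the right of the dotted line at 4-fold, the fatty acid uptake list spreads over both sides around -0.05, and the list of nitric oxide and prostanoid enzymes has its median at -4.11.

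Most pairs of a muscle-type gene and a relative were called in opposite fractions, but most were not opposite by the stricter rule. Of 36 pairs of related genes, the muscle-type member was called higher in cardiomyocytes and the other in endothelial cells in 23, both were called higher in cardiomyocytes in 12, and Gja1 with Gja4 was left because Gja1 was not called. With the stricter rule for both members, 15 pairs were opposite and 4 were both in cardiomyocytes. In the other 17, 1 or both members did not pass it. Fabp3, Tpm1 and Actn2 were each paired again with another relative, so the pairs outnumber the families.

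Cytoskeletal pairs were largely opposite. Against Myh6 stood Myh9, non-muscle myosin, read at 54.1, 53.8 and 29.6 CPM in cardiomyocytes and 485, 399.9 and 425 CPM in endothelial cells (log2 fold change -3.25 ± 0.24 (SE), adjusted p = 2.23e-06). Myl3, the ventricular essential light chain, was at 7.76 and its widespread relative Myl6 at -2.98. Among actin crosslinkers, Actn2 of the Z-disc was at 7.37 and Actn1 and Actn4 of other cells at -2.43 and -3.27; Flnc, the muscle filamin, was at 4.57 and Flna at -3.90. Tpm3 and Tpm4 were at -4.81 and -4.17, opposite to Tpm1. Actb, cytoplasmic actin, was read at 216, 378 and 259 CPM in cardiomyocytes and 876, 1103 and 996 CPM in endothelial cells (log2 fold change -1.80 ± 0.20 (SE), adjusted p = 1.79e-05), under 4-fold.

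The divide reached beyond the cytoskeleton. Eef1a2, the elongation factor of muscle and neurons, was read at 1300, 1300.5 and 1411 CPM in cardiomyocytes and 17.8, 13.9 and 12.4 CPM in endothelial cells (log2 fold change 6.51 ± 0.17 (SE), adjusted p = 5.42e-12), and Eef1a1, the form of most other cells, at 138, 219 and 125 CPM in cardiomyocytes and 3897, 4954 and 4823 CPM in endothelial cells (log2 fold change -4.82 ± 0.24 (SE), adjusted p = 5.51e-08); Eef1a1 has many processed copies that may share its reads. Per kilobase of exon, Eef1a2 exceeded Eef1a1 in cardiomyocytes (642 against 64.5 CPM per kb) and the reverse held in endothelial cells (7.06 against 1828). Atp2a3, the calcium pump of non-muscle cells, was at -5.33 and Itpr2, a calcium release channel gated by inositol trisphosphate, at -2.48, opposite to Atp2a2 and Ryr2. Cav3, muscle caveolin, was at 6.60, opposite to Cav1, and Itga7, the laminin receptor of muscle, at 2.14 against -3.54 for Itga6. Fabp5 was at -4.92, on the side of Fabp4.

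Metabolic pairs were often not opposite. Fabp3 and Fabp4, per kilobase, stood at 3769.7 and 25.9 CPM per kb in cardiomyocytes and 29.2 and 882 CPM per kb in endothelial cells, a full exchange. By contrast, Ldha and Ldhb were both called higher in cardiomyocytes (1.03 and 5.91), as were Eno1 with Eno3 (0.33 and 6.68), Pfkl with Pfkm (1.23 and 5.64), Hk1 with Hk2 (1.26 and 6.20) and Slc25a5 with Slc25a4 (1.13 and 4.84); Ldha, Eno1, Pfkl, Hk1 and Slc25a5 each turned sign on library size. In all 5 families the muscle member differed more. Pgam2, Slc2a4 and Ckm were at 5.95, 5.72 and 7.75, with Pgam1, Slc2a1 and Ckb called on the endothelial side by less than 4-fold.

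Respiratory chain subunits with muscle forms showed the same. Cox6a2 was read at 649, 686 and 723 CPM in cardiomyocytes and 5.81, 5.37 and 5.33 CPM in endothelial cells (log2 fold change 6.96 ± 0.13 (SE), adjusted p = 2.19e-12), while its relative Cox6a1 was higher in endothelial cells (26.2, 27.3 and 28.95 CPM in cardiomyocytes and 41.4, 51.99 and 54.9 CPM in endothelial cells, log2 fold change -0.85). Cox7a1 and Cox7a2 were both higher in cardiomyocytes, by 6.27 and 2.71, and so were Cox8b and Cox8a, by 6.42 and 0.48; Cox8a turned to -0.86 on library size. Among regulators, Prkaa2 and Prkaa1, the catalytic subunits of AMP kinase, were opposite (5.23 and -1.07), as were Acacb and Acaca, the carboxylases that make malonyl-CoA (3.79 and -0.55). Esrrg and Esrra, nuclear receptors of mitochondrial genes, were both higher in cardiomyocytes (7.56 and 3.14), as were Ppp1r3a and Ppp1r3c, which target a phosphatase to glycogen (7.53 and 5.54).

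**Figure D4:**
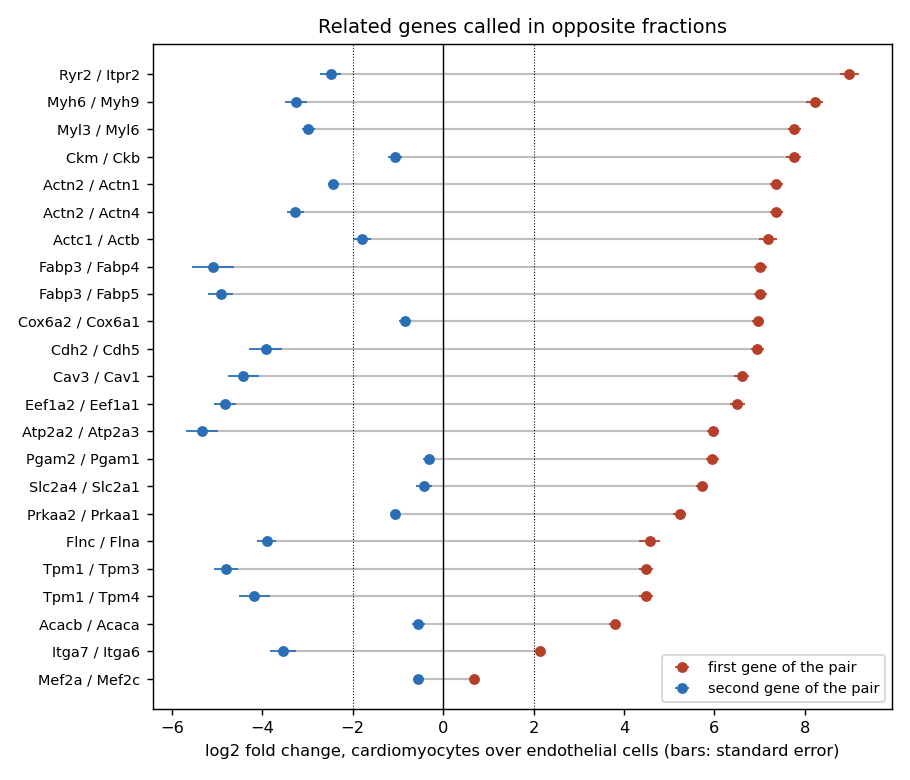
Log2 fold change of both members of the 23 pairs of related genes that were called in opposite fractions, the first named gene in red and the second in blue, with bars of 1 standard error and dotted lines at 4-fold. The first members reach from 0.69 (Mef2a, which turned to -0.65 on library size) to 8.98 (Ryr2) and the second from -0.32 (Pgam1) to -5.33 (Atp2a3).

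Ligand and receptor genes lay mostly on the endothelial side. Of 66 tested secreted ligands (70 listed), 16 were called higher in cardiomyocytes and 49 in endothelial cells, 12 and 40 by the stricter rule, and of 91 receptors 19 and 70, with 11 and 53 by the stricter rule. Median log2 fold changes were -3.08 and -2.74, beside -0.19 for all genes. Sorted by calls, 9 of 48 ligand and receptor pairs had the ligand higher in cardiomyocytes and the receptor in endothelial cells, 3 had the reverse, 32 had both higher in endothelial cells, and 4 had a member that was not called or tested. No pair had both members higher in cardiomyocytes. Under the stricter rule for both members the counts were 7, 1 and 19. Over all genes tested, 36.4% were called higher in cardiomyocytes and 43.3% in endothelial cells. Because most listed ligands and receptors were endothelial calls, a pair with both there is the usual outcome. The share that the lists alone would give was not computed, so the pair counts show nothing particular to the pairing.

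Among the cardiomyocyte ligands with an endothelial receptor were members of the VEGF family. Vegfa, the main growth factor of vessels, was read at 769, 637 and 692 CPM in cardiomyocytes and 67.9, 64.4 and 67.6 CPM in endothelial cells (log2 fold change 3.39 ± 0.12 (SE), adjusted p = 6.62e-11). Vegfb, a relative that binds Flt1, stood at 179, 167 and 190.4 CPM in cardiomyocytes and 6.9996, 7.15 and 8.32 CPM in endothelial cells (log2 fold change 4.58 ± 0.13 (SE), adjusted p = 8.48e-12). Both ligands were thus high where Kdr and Flt1 were low, and no library overlapped between the fractions in any of the 4 genes. The other VEGF ligands were on the endothelial side: Vegfc, the ligand of Flt4, at -5.17, with Flt4 at -4.03, and Pgf at -4.21.

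Angiopoietins showed the same exchange. Angpt1, the agonist of the Tie2 receptor, was read at 51.8, 62.3 and 71.2 CPM in cardiomyocytes and 5.97, 5.3997 and 4.31 CPM in endothelial cells (log2 fold change 3.56 ± 0.16 (SE), adjusted p = 8.15e-10), and Angpt2, which competes with it, at 1.01, 1.36 and 0.735 CPM in cardiomyocytes and 29.2, 31.5 and 27.4 CPM in endothelial cells (log2 fold change -4.84 ± 0.20 (SE), adjusted p = 2.71e-10). Their receptor Tek stood at 16.6, 49.9 and 18.4 CPM in cardiomyocytes and 618, 586 and 523 CPM in endothelial cells (log2 fold change -4.35 ± 0.50 (SE), adjusted p = 3.16e-04), on the same side as Angpt2. Tie1, the related orphan receptor, was at -4.06.

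Other cardiomyocyte ligands paired with endothelial receptors as follows. Nppb, brain natriuretic peptide, was read at 317, 277 and 252 CPM in cardiomyocytes and 4.94, 5.66 and 8.005 CPM in endothelial cells (log2 fold change 5.50 ± 0.20 (SE), adjusted p = 5.48e-10), and its receptor Npr1 at 7.16, 9.47 and 4.596 CPM in cardiomyocytes and 151, 129 and 135 CPM in endothelial cells (log2 fold change -4.30 ± 0.23 (SE), adjusted p = 1.25e-07). Fgf1 was read at 324, 281 and 289 CPM in cardiomyocytes and 12.7, 16.7 and 11.8 CPM in endothelial cells (log2 fold change 4.44 ± 0.15 (SE), adjusted p = 6.35e-11) and Fgfr1 was at -2.38, so that the FGF receptor was lower in cardiomyocytes than in endothelial cells. Fgf2 was called higher in cardiomyocytes at 0.80 but turned to -0.55 on library size. Sema3c, a guidance cue, was at 2.95 with its receptor Plxnd1 at -2.78, and Mstn, myostatin, was at 4.40 from low counts (0.716, 0.544 and 1.06 CPM in cardiomyocytes and 0, 0.103 and 0 CPM in endothelial cells) with Acvr2b at -1.14. Sema3c was the least even of these, at 29.4, 14.6 and 15.9 CPM in the 3 cardiomyocyte libraries.

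Endothelial ligands with a cardiomyocyte receptor were few. Nrg1, neuregulin, was read at 0.239, 0.109 and 0.414 CPM in cardiomyocytes and 17.5, 11.3 and 11.5 CPM in endothelial cells (log2 fold change -5.66 ± 0.36 (SE), adjusted p = 1.57e-08), and its receptor Erbb4 at 39.8, 29.1 and 32.5 CPM in cardiomyocytes and 0.461, 0.549 and 0.366 CPM in endothelial cells (log2 fold change 6.20 ± 0.20 (SE), adjusted p = 3.76e-11). That was the only pair of this direction past the stricter rule. Edn1, endothelin, was at 9.48, 8.33 and 7.22 CPM in cardiomyocytes and 60.2, 52.8 and 56.3 CPM in endothelial cells (log2 fold change -2.76 ± 0.13 (SE), adjusted p = 1.19e-09) and its receptor Ednra was called higher in cardiomyocytes at 1.05, but turned to -0.30 on library size; the receptor Ednrb was at -3.48, with the ligand. Jag1 was at -4.48 with Notch2 at 0.37, a call that was lost without endothelial replicate 2 or 3 or cardiomyocyte replicate 1 (adjusted p = 0.138, 0.125 and 0.0936) and turned to -0.96 on library size and to -0.17 when that size left out the mitochondrially encoded genes. In Q150X libraries Notch2 was at 0.20 and not called.

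Most remaining pairs had both members in the endothelial libraries. Notch signalling was one: Dll4 and Jag1 with Notch1 (-3.72) and Notch4 (-3.39). Another was Pdgfb at 5.67, 20.03 and 7.95 CPM in cardiomyocytes and 113, 109.7 and 117 CPM in endothelial cells (log2 fold change -3.34 ± 0.47 (SE), adjusted p = 8.68e-04), with Pdgfrb, its receptor on pericytes, at 11.2, 22.3 and 10.2 CPM in cardiomyocytes and 84.3, 99.4 and 101 CPM in endothelial cells (log2 fold change -2.71 ± 0.31 (SE), adjusted p = 1.72e-04). Similarly Pdgfa was at -0.56 with the fibroblast receptor Pdgfra at -1.80, Csf1 at -1.76 with the macrophage receptor Csf1r at -2.58, Cx3cl1 at -2.87 with Cx3cr1 at -3.53 and Kitl at -4.01 with Kit at -3.12. Pdgfrb, Pdgfra, Csf1r and Cx3cr1 mark pericytes, fibroblasts and macrophages, whose list sums are higher in the endothelial libraries as given above, and the part of those cells in these receptor values was not tested.

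Chemokine and cytokine pairs fell on the same side. Cxcl12 was read at 31.9, 95.6 and 44.2 CPM in cardiomyocytes and 1345, 1247 and 1072 CPM in endothelial cells (log2 fold change -4.42 ± 0.47 (SE), adjusted p = 2.23e-04) and its receptor Cxcr4 was at -3.79, while its scavenger Ackr3 was not called (-0.04, adjusted p = 0.715). Il6 was at 0.239, 0.218 and 0.184 CPM in cardiomyocytes and 83.7, 113 and 129 CPM in endothelial cells (log2 fold change -8.99 ± 0.26 (SE), adjusted p = 1.49e-11) with Il6ra at -2.33, Lif at -3.27 with Lifr at -0.64, and Il33 at -4.93 with Il1rl1, which was not called (-1.69, adjusted p = 0.13). Lif was read at means of 0.112 CPM in cardiomyocytes and 1.06 CPM in endothelial cells, so its fold rests on few counts. Adm, adrenomedullin, was at -2.48 with Calcrl at -3.98. Apln was not called (24.2, 13.7 and 16.2 CPM in cardiomyocytes and 14.9, 17.9 and 22.1 CPM in endothelial cells, adjusted p = 0.917), and its receptor Aplnr was at -3.81; the sign of Apln turned to 0.12 without endothelial replicate 3, to 0.14 without cardiomyocyte replicate 2 and to 0.07 without cardiomyocyte replicate 3. Nppc, C-type natriuretic peptide, was under the filter with 22 counts in endothelial cells and none in cardiomyocytes, and its receptor Npr2 was at -0.57.

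Of the TGF-beta and BMP ligands, Mstn was given above as higher in cardiomyocytes. Tgfb1 and Tgfb2 were at -3.60 and -1.93 with Tgfbr2 at -2.93, and Bmp4 and Bmp6 at -5.15 and -5.41 with Bmpr2 at -0.95; Bmp10 was paired with Acvrl1 at -4.72. Igf1 was at -1.35 with Igf1r at -1.02, and Igf2, with 3 counts in all cardiomyocyte libraries together, had a pooled ratio of 154 (95% exact binomial interval 52.7 to 749.7), which covers counting error only. Guidance and adhesion cues gave Efnb2 with Ephb4, Efna1 at -2.04 with Epha2 at -3.91, Sema3a at -3.15 with Nrp1 at -2.74, and Slit3 at -3.92 with Robo1 at -2.13. Gas6 was at -1.83 with Axl at -3.51, Hgf at -2.71 with Met at -0.995 and Hbegf at -0.85 with Egfr at -1.65. Robo1 and Hgf were read at means of 0.493 and 0.301 CPM in cardiomyocytes and 2.08 and 1.98 CPM in endothelial cells. Their folds rest on few counts. The calls of Egfr and Pdgfa were lost without endothelial replicate 3 (adjusted p = 0.0592 and 0.0612), and that of Met without endothelial replicate 1 or 3 or cardiomyocyte replicate 3 (adjusted p = 0.077, 0.0545 and 0.074). In Q150X libraries Met was not called (-0.63).

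**Figure D5:**
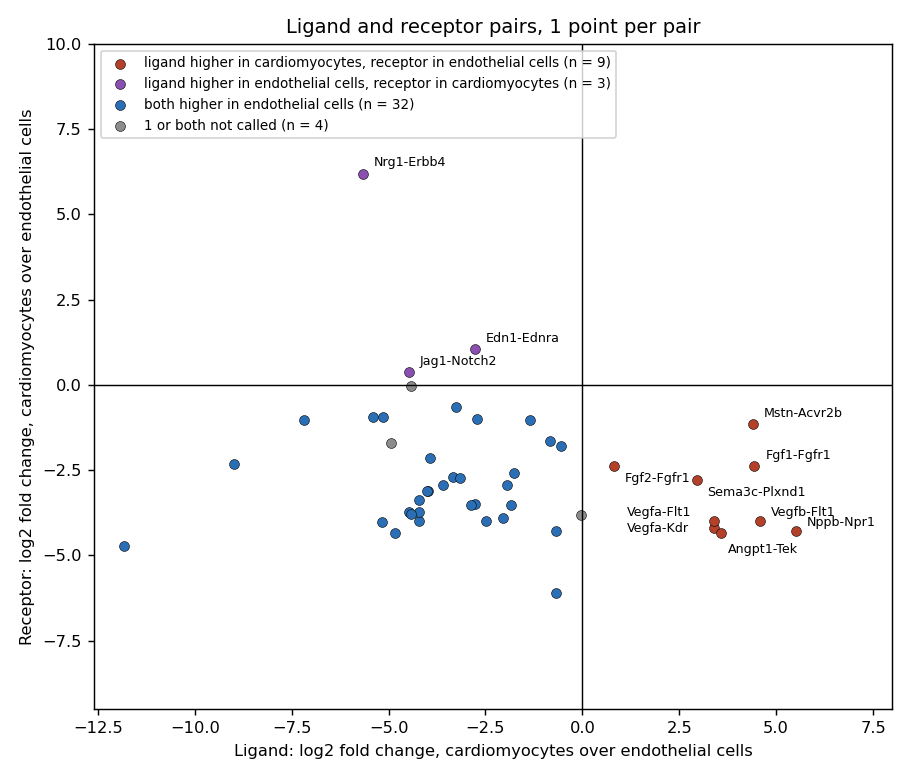
Log2 fold change of the ligand (horizontal) and of the receptor (vertical) for 47 of the 48 pairs, cardiomyocytes over endothelial cells, 1 point per pair coloured by the calls of both members; Nppc with Npr2 is not drawn because Nppc was not tested. The 9 pairs at the lower right have a cardiomyocyte ligand and an endothelial receptor, Nrg1 with Erbb4 stands alone at the upper left, and the other 2 pairs of that direction lie just above 0 for the receptor.

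Among the 19 receptors called higher in cardiomyocytes were receptors for hormones and for autonomic transmitters; this choice was made after the values were seen. Chrm2, the muscarinic receptor of the heart, was read at 266, 283 and 284 CPM in cardiomyocytes and 4.04, 3.17 and 2.55 CPM in endothelial cells (log2 fold change 6.42 ± 0.18 (SE), adjusted p = 9.29e-12). Adra1a, an alpha-adrenergic receptor, stood at 53.8, 50.3 and 45.9 CPM in cardiomyocytes and 0.106, 0.11999 and 0.0477 CPM in endothelial cells (log2 fold change 9.06 ± 0.22 (SE), adjusted p = 3.57e-12), and Adra1b and the beta receptor Adrb1 were at 6.32 and 4.46. Insr, the insulin receptor, was at 389, 391 and 401 CPM in cardiomyocytes and 61.97, 50.6 and 49.8 CPM in endothelial cells (log2 fold change 2.86 ± 0.12 (SE), adjusted p = 3.53e-10), Ghr, the growth hormone receptor, at 2.66, Agtr1a, an angiotensin II receptor, at 5.19, Adora1, an adenosine receptor, at 6.28, and Tfrc, the transferrin receptor, at 2.08. Among ligands, Fgf13, an FGF homolog that stays in the cell and binds sodium channels, was at 6.24 and Fgf16 at 6.77.

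Of the matrix beneath endothelium, 13 of 16 basement membrane genes were called higher in endothelial cells, 7 by the stricter rule. Sparcl1 and Sparc, matricellular proteins, were read at 83.3, 158 and 71.3 CPM in cardiomyocytes and 1779, 1932 and 1779 CPM in endothelial cells (log2 fold change -4.14 ± 0.33 (SE), adjusted p = 2.57e-05) and at -3.37. The collagen IV chains Col4a1 and Col4a2 and the proteoglycan Hspg2 were at -1.92, -0.76 and -1.34. Lama2, the laminin chain of muscle, was the reverse at 189, 159 and 163 CPM in cardiomyocytes and 18.98, 23.02 and 23.3 CPM in endothelial cells (log2 fold change 2.97 ± 0.13 (SE), adjusted p = 3.71e-10). Lamb2 was not called (0.26, adjusted p = 0.0867; -1.09 on library size), and Lama5, at 0.55, turned to -0.79 on library size. Of 16 genes in the integrin list, 11 were called higher in endothelial cells and 3 in cardiomyocytes. The list counts the binding protein Itgb1bp2 and leaves out the integrin chain Itgad, given below with the largest cardiomyocyte differences. Itga6 and Itga1, laminin and collagen receptors, were at -3.54 and -3.01, and Itgb1, the shared beta chain, and Itga5 at -0.83 and -0.75. On the muscle side, Itgb1bp2, melusin, a muscle protein that binds the beta chain, was at 6.83, next to Itga7, and Itgb5 was at 0.95 and turned to -0.40 on library size.

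Immediate early genes, which respond within minutes to stimulation and to cell isolation, were higher in endothelial cells in all 24 cases, 14 by the stricter rule, with a median of -2.90. Fosb, an AP-1 factor, was read at 80.03, 83.4 and 53.1 CPM in cardiomyocytes and 3555, 3447 and 2972 CPM in endothelial cells (log2 fold change -5.53 ± 0.20 (SE), adjusted p = 1.89e-10). Egr1, a zinc finger factor of the same response, stood at 652, 613 and 669 CPM in cardiomyocytes and 1828, 1797 and 1363 CPM in endothelial cells (log2 fold change -1.37 ± 0.13 (SE), adjusted p = 8.00e-07). Fos, Junb, Atf3 and Zfp36 were at -1.87, -3.01, -2.04 and -2.94.

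The 3 uninjured wild-type whole hearts of the series show where these levels lie without separating the cells; this comparison was added after the values were seen, and is given as CPM of the library total, with no test. Summed over the 24 genes, hearts held 1185, 427 and 460 CPM, cardiomyocytes 2547, 2441 and 2846 CPM and endothelial cells 30066, 30738 and 27453 CPM. Every endothelial library was above every heart for 24 of 24 genes, and every cardiomyocyte library for 12 of 24. The same share over all genes is not given here, so these counts show nothing particular to the list. This scale has no composition factor. On it, the smaller mitochondrial share of the endothelial libraries raises their other genes relative to those of cardiomyocytes. For Fosb the hearts were at 5.93, 0.496 and 1.28, the cardiomyocytes at 53.6, 47.7 and 34.2 and the endothelial cells at 5619, 5433 and 4818. On the same scale the endothelial enrichment differed between markers. Pecam1 was at 259, 201 and 189 in hearts and 2790, 2812 and 2759 in endothelial cells. Cldn5 was at 30.1, 13.9 and 16.4 in hearts and 228, 288 and 356 in endothelial cells. Egfl7 differed less, at 63.1, 50.8 and 65.8 in hearts and 209, 233 and 281 in endothelial cells. For Cdh5, Kdr and Tie1 too, every endothelial library was above every heart. The cause of the difference from whole hearts was not tested.

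For 6 inflammatory genes too, every endothelial library was above every heart, but cardiomyocytes were not above the hearts: they overlapped with the hearts for Il6, Sele, Ptgs2 and Adamts4 and lay below them for Cxcl10 and Batf. All but Ptgs2 are among the 12 largest endothelial differences of these same libraries. Their high endothelial and low cardiomyocyte levels therefore follow largely from that choice. Il6, a cytokine, was at 0.231, 0 and 0.151 CPM of the library in hearts, 0.1598, 0.125 and 0.118 in cardiomyocytes and 132, 178 and 209 in endothelial cells. Cxcl10, an interferon-induced chemokine, was at 0.655, 0.283 and 0.189 in hearts, 0.0399, 0 and 0 in cardiomyocytes and 217, 343 and 297 in endothelial cells. Sele, the selectin of activated endothelium, was at 1.81, 0.283 and 0.4901 in hearts, 0.479, 0.249 and 0.177 in cardiomyocytes and 459, 436 and 394 in endothelial cells. These 3 genes were nearly absent from whole hearts, although Pecam1 was not. Ptgs2, the inducible prostaglandin synthase, followed with 4.201, 0.779 and 0.679 in hearts, 1.52, 0.654 and 0.384 in cardiomyocytes and 643, 423 and 401 in endothelial cells. Adamts4, a matrix protease, was at 0.0771, 1.204 and 1.85, 0.679, 0.0935 and 0.266 and 432, 444 and 495 in the same order of groups. Batf, an AP-1 factor of leukocytes, was at 1.31, 0.354 and 0.603 in hearts, at 0 in all 3 cardiomyocyte libraries and at 15.6, 18.3 and 16.9 in endothelial cells. The cause of these levels was not tested.

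MHC class I genes, which present peptides to T cells, were higher in endothelial cells in 11 of 11 cases by the stricter rule. B2m, their shared light chain, was read at 53.8, 67.9 and 65.9 CPM in cardiomyocytes and 1210.3, 1637 and 1365 CPM in endothelial cells (log2 fold change -4.49 ± 0.16 (SE), adjusted p = 6.73e-11), and Tap1, the peptide transporter, was at -5.25. H2-D1, H2-K1, H2-Q4 and H2-T23 were at -4.92, -4.37, -5.59 and -5.20, and reads of these near copies may have been split between them. Cell cycle genes were higher in endothelial cells in 23 of 24 cases, 19 by the stricter rule. Pcna, the replication clamp, was read at 25.6, 24.2 and 23.3 CPM in cardiomyocytes and 118, 156 and 133 CPM in endothelial cells (log2 fold change -2.47 ± 0.13 (SE), adjusted p = 2.03e-09), and the helicase subunits Mcm4, Mcm6 and Mcm3 were at -2.77, -3.97 and -3.68 and Mcm7 at -0.69. Cenpf, a kinetochore protein, was called higher in cardiomyocytes, at 27.8, 13.2 and 17.4 CPM in cardiomyocytes and 5.01, 4.18 and 6.17 CPM in endothelial cells (log2 fold change 1.92 ± 0.27 (SE), adjusted p = 1.40e-04). Of 36 ribosomal protein genes, 34 were called higher in endothelial cells, 2 by the stricter rule, with a median of -1.04. Rps14 and Rpl4 were at -1.64 and -0.69, and Rps3a1, Rps4x, Rps6 and Rps24 lay between them; Rps2 was the single cardiomyocyte call at 0.61 and turned to -0.73 on library size. Processed copies of these genes may share their reads.

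The largest cardiomyocyte differences, after the size limit of 10 CPM, were a mixture of well-read and barely read genes. Besides Ttn, Asb15, a muscle ubiquitin ligase adaptor, was read at 159, 174 and 176 CPM in cardiomyocytes and 0.248, 0.189 and 0.239 CPM in endothelial cells (log2 fold change 9.54 ± 0.16 (SE), adjusted p = 2.19e-12), and Myh7b, a slow-type myosin, at 264, 236 and 242 CPM in cardiomyocytes and 0.2304, 0.514 and 0.382 CPM in endothelial cells (log2 fold change 9.35 ± 0.21 (SE), adjusted p = 3.12e-12). Ucp3, a mitochondrial carrier of muscle, was at 85.3, 27.5 and 37.1 CPM in cardiomyocytes and 0.0709, 0.0343 and 0.143 CPM in endothelial cells (log2 fold change 9.15 ± 0.76 (SE), adjusted p = 6.79e-05).

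For genes with almost no endothelial counts a ratio of pooled counts is given. The mitochondrial serine tRNA mt-Ts1 and Ush1c, a scaffold protein, had no endothelial count and were at least 777-fold and 644-fold higher in cardiomyocytes against a floor of 3 counts over the group. Kcnv2, a silent potassium channel subunit, had 1 endothelial count and a pooled ratio of 2613 (95% exact binomial interval 468 to 103313). Itgad, an integrin chain otherwise known from leukocytes, also had 1, with a ratio of 2010.2 (95% exact binomial interval 359.5 to 79519). Prlr, the prolactin receptor, had 3, with a ratio of 1117 (95% exact binomial interval 381 to 5427). Abca12, a lipid transporter, was read at 13.0002, 17.8 and 15.5 CPM in cardiomyocytes and 0, 0.0686 and 0 CPM in endothelial cells (log2 fold change 9.23 ± 0.45 (SE), adjusted p = 2.03e-09). These intervals cover counting error only, and the means of these genes in cardiomyocytes reached from 10.7 CPM (Ush1c) to 18.99 CPM (Prlr).

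The largest endothelial differences were of 3 kinds. The globins Hbb-bt and Hba-a2 had no count in cardiomyocytes and were at least 552-fold and 272-fold higher in endothelial cells, and Hba-a1 was read at 0, 0.109 and 0.0919 CPM in cardiomyocytes and 90.2, 151 and 157 CPM in endothelial cells; they belong to red cells, whose list sum moves with this fraction, and reads of their near copies may have been split. Cxcl10, Sele, Adamts4, Il6 and Batf are the inflammatory genes described above. Cxcl10 had 1 cardiomyocyte count and a pooled ratio of 10242 (95% exact binomial interval 1838 to 404536), and Batf none and at least 202-fold. Sele was read at 0.716, 0.435 and 0.276 CPM in cardiomyocytes and 290.2, 276 and 243 CPM in endothelial cells (log2 fold change -9.19 ± 0.22 (SE), adjusted p = 3.44e-12) and Adamts4 at 1.01, 0.163 and 0.414 CPM in cardiomyocytes and 274, 282 and 305 CPM in endothelial cells (log2 fold change -9.12 ± 0.32 (SE), adjusted p = 6.97e-09). Of the remaining genes, Gkn3, a gastrokine known from arterial endothelium, was at least 218-fold higher, A2m, a protease inhibitor, at least 316-fold, and Bmp10 is given with the atrial genes. Sost, a Wnt inhibitor known from bone, had 2 cardiomyocyte counts and a pooled ratio of 462 (95% exact binomial interval 128 to 3815).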

How the data were processed

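The deposited table holds raw counts of reads per gene for all 43 libraries, made by the authors; per the submitters' processing notes HISAT2, kallisto and the mouse build GRCm39 were used, without stated roles or versions. It lists 57010 genes, all values are whole numbers, and 4981 identifiers without a symbol took at most 0.178% of the counts of the 6 libraries. How strand and multi-mapping reads were counted is not stated in the sources used here.

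The 6 wild-type fraction libraries at homeostasis were fitted together in edgeR 4.0.16 (R 4.3.3) with TMM factors (1.58 to 1.62 in endothelial cells, 0.573 to 0.670 in cardiomyocytes), filterByExpr (minimum count 10, minimum total count 15), robust quasi-likelihood F-tests with 4 residual degrees of freedom and Benjamini-Hochberg adjustment over the 16054 genes kept. A floor of 3 counts over a group equals 0.0527 CPM in cardiomyocytes and 0.0169 CPM in endothelial cells; intervals cover counting error only. Levels per kilobase divide CPM by the exon length of the gene. No libraries of a group were identical or within counting noise of each other. No label says that equal replicate numbers mark a shared animal or day, so no block was used. Between fractions, libraries of equal number had correlations of deviations of -0.025, -0.0015 and 0.00022. With 3 libraries a group these cannot decide whether the libraries were paired, since a shared animal need not move the same genes in both cell types. The fit was tested on simulated data in which both groups had the endothelial profile. In these, 100 genes were changed by a log2 fold change of 1 and 100 by 2, equally in both directions. It recovered 71% and 96% of them, and 5.11% of the calls were false. A composition difference like that of the real libraries was not simulated. The Q150X libraries were fitted the same way, and the difference between genotypes by an interaction term in 1 fit of 12 libraries.

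The gene lists, pairs and members were chosen from textbook knowledge with earlier results of these data known, and no set test was run. Named are the 12 largest differences per direction (called, no overlap, at least 10 CPM in the higher fraction, no numbered or pseudogene names), in each list the 6 members with the most reads and up to 4 called against its majority, all pair members, and for other cell types the 3 members with the most reads and defining markers at 0. Other names were chosen after their values were seen. Some named genes are not reported here. Protein sequences are not shown. Alternatives covered scaling, the mitochondrially encoded genes, the filter, the libraries in the fit, a replicate block, DESeq2 1.42.0, voom in limma 3.58.1, a null of at most 2-fold and each library left out in turn. Promoters were read from RefSeq's table of GRCm38.p6 and searched over 250 bases before each start.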

Additional observations from a re-analysis of the deposited data

Results flagged for a closer look

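Of 17158 genes tested with an interaction term in edgeR, 5 had a difference between cardiomyocytes and endothelial cells that itself differed between wild type and Q150X. In each the fold toward endothelial cells was larger in Q150X. Lfng, a glycosyltransferase that modifies Notch receptors, was read at 1.19, 1.74 and 1.06 CPM in wild-type and 0.171, 0.193 and 0.305 CPM in Q150X cardiomyocytes, and at 9.605, 9.58 and 10.98 CPM and 14.01, 11.5 and 13.2 CPM in the endothelial cells. Its log2 fold change went from -2.92 to -5.83 (fitted difference -2.94, adjusted p = 0.0204). All 3 Q150X cardiomyocyte libraries lay under all 3 wild-type ones.

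Ldb2, a LIM domain cofactor, was read at 2.98, 4.68 and 4.09 CPM in wild-type and 1.2002, 1.11 and 1.52 CPM in Q150X cardiomyocytes and differed by -1.67 (adjusted p = 0.0204), with endothelial levels of 64.9, 58.2 and 62.3 CPM and 60.6, 64.1 and 62.5 CPM. Fxyd5, a regulator of the sodium pump, was at 2.33, 2.12 and 2.02 CPM and 0.686, 1.11 and 0.812 CPM in cardiomyocytes and differed by -1.57 (adjusted p = 0.0476). Vsig2, an immunoglobulin domain protein, was at 2.09, 3.92 and 2.85 CPM and 0.914, 1.01 and 1.07 CPM and differed by -2.02 (adjusted p = 0.0476), and Arc, an immediate early gene, at 6.02, 6.15 and 5.33 CPM and 1.94, 3.37 and 2.13 CPM and by -1.44 (adjusted p = 0.0476). In these 4 genes too, every Q150X cardiomyocyte library was lower than every wild-type one. Beside them, the median log2 fold change of the endothelial identity list was -4.27 in wild type and -5.27 in Q150X, and its part in these differences was not tested.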

How the results depend on the processing

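Genes called numbered 12110 with the replicate number as a block (replicate block), 5551 higher in cardiomyocytes and 6559 in endothelial cells, and 6275 past the stricter rule; of the named genes, Cpt1a alone lost its call. The block rests on numbers that no label ties to an animal or day. Leaving out each library in turn gave 12242 to 12955 called genes, 5599 to 5925 higher in cardiomyocytes and 6615 to 7080 in endothelial cells, 2632 to 2708 and 3808 to 4178 past the stricter rule, 11 to 12 ligand and receptor pairs and 21 to 23 pairs of related genes in opposite fractions. DESeq2 called 12650 genes, voom 13038, DESeq2's size factors in edgeR 12787, no filter 14161, and the fit of all 12 fraction libraries 13268.

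Among the settings run, scaling changed the balance of directions. On library size without a composition factor 2735 genes were called higher in cardiomyocytes and 11223 in endothelial cells, with 1413 and 6610 past the stricter rule, and the sign turned for these log2 fold changes: Cox8a -0.86, Cpt1a -1.08, Cyp51 -0.20, Ddx3y -0.98, Ednra -0.30, Eno1 -1.01, Fasn -0.44, Fgf2 -0.55, Hk1 -0.080, Hmgcs1 -0.90, Itgb5 -0.40, Lama5 -0.79, Lamb2 -1.09, Ldha -0.31, Mef2a -0.65, Mef2d -0.38, Notch2 -0.96, Paics -0.18, Pfkl -0.11, Prdx1 -0.63, Rps2 -0.73, Slc25a5 -0.21, Spr -0.45 and Taldo1 -0.81. The medians of the lists for one-carbon and nucleotide synthesis, antioxidant enzymes and sex-linked genes turned to -1.05, -0.37 and -0.76. When that size left out the mitochondrially encoded genes, an alternative chosen after seeing the data, Cox8a -0.069, Cpt1a -0.28, Ddx3y -0.18, Eno1 -0.21, Hmgcs1 -0.10, Lamb2 -0.29, Notch2 -0.17 and Taldo1 -0.020 turned, and the one-carbon median was -0.25. Against a null of at most 2-fold, glmTreat called 8277 genes, 3608 of them higher in cardiomyocytes. Under the stricter rule for both members, 15 pairs of related genes, in place of 23, were opposite.

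Of 395 tested genes that the naming rule or the text picks, 390 were called, and 358 kept their direction and their side of the threshold under every alternative run. Without cardiomyocyte replicate 2, the log2 fold changes of 16 called genes moved away from 0 by over 1.5-fold on the linear scale: Acvrl1 -5.34, Ednrb -4.16, Egfl7 -3.54, Gja4 -5.75, Hgf -3.64, Il33 -5.93, Klf4 -4.45, Lif -4.25, Pdgfb -4.04, Ptprc -4.80, Rgs5 -4.02, Slc2a3 -6.95, Sost -12.46, Tek -5.03, Tie1 -4.65 and Ushbp1 -4.31. Without cardiomyocyte replicate 1 the values of Adamts4, Cxcl10, Igf2 and Ucp3 were -9.87, -15.93, -8.17 and 8.57. Without cardiomyocyte replicate 3 those of Cd79a, Cx3cr1, Dkk3, Egfr, Igf2, Lif, Nrg1, Robo1, Cxcl10 and Sost were -7.85, -7.22, -4.56, -1.05, -6.51, -2.58, -6.24, -1.46, -12.45 and -8.06. Without endothelial replicate 1 Kcnv2 was at 12.01, without replicate 2 Abca12, Esrrg, Itgad and Mstn were at 12.08, 8.14, 11.60 and 7.78, and without replicate 3 Abca12, Mstn, Prlr and Ucp3 at 8.64, 3.80, 12.34 and 9.79. Signs also turned for Apln without endothelial replicate 3 (0.12) or cardiomyocyte replicate 2 or 3 (0.14 and 0.07; range over the libraries left out -0.26 to 0.14), for Gja1 without cardiomyocyte replicate 1 (0.10; range -0.089 to 0.10) and for the fatty acid uptake median without the same library (0.11). The call of Eno1 was lost without endothelial replicate 1 and that of Ddx3y without endothelial replicate 3 (adjusted p = 0.0567 and 0.0705), and Il1rl1, not called, was at -6.96 without cardiomyocyte replicate 1 (adjusted p = 0.00561). Lamb2 gained a call without the same library (0.40). The causes were not tested. With 3 libraries a group and few counts in the lower fraction, folds of genes such as Kcnv2, Itgad, Mstn and Cxcl10 are limited by depth.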
